A study of Arabidopsis thaliana with 4 samples.

Results

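Roots of untreated luh-4 seedlings were compared with roots of untreated wild type. luh-4 is a mutant of LEUNIG_HOMOLOG (LUH) in Arabidopsis thaliana, and the wild type was the Columbia ecotype (Col). The comparison took 2 of the 4 libraries in the series, Col control and luh-4 control, with 1 library a side. Members were all loci with a value of at least 1 RPKM (reads scaled by coding length in kilobases and by the library total in M reads) in either of these libraries, which were 17070 of the 21531 loci listed in any library. Seedlings of both genotypes, about 500 per treatment, grew for 6 d in nutrient solution at pH 5.5 and were then moved to solution at pH 4.2 without AlCl3 for the controls. Roots of every arm were sampled after 4 h by the treatment text, but both control libraries bear the time label 0 h, so their time at pH 4.2 is uncertain, for both genotypes alike. The other 2 libraries, Col Al and luh-4 Al, came from the same genotypes in solution with 25 µM AlCl3. They share no library with the control pair and are given beside it as another pair in another treatment, not as a replicate. The nature of the luh-4 allele is not given in the sources used here.

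LUH and its relative LEUNIG (LUG) are Groucho-type transcriptional co-repressors. They do not bind DNA themselves but are brought to genes by transcription factors through adaptor proteins of the SEUSS family. LUH is known for its part in the release of seed coat mucilage and acts with LUG in organ development. In the jasmonate pathway, which wounding and attack switch on, JAZ proteins repress the transcription factors of the response until the hormone leads to their breakdown, and JAZ genes are themselves among the genes that the hormone induces. Photosynthesis genes are the most abundant nuclear transcripts of green leaves and are expressed at low levels in roots.

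Upstream sequences are shown for 5 genes from the groups the comparison turned on. They are a pair of JAZ repressor genes, an early stress transcription factor, a Rubisco small subunit and a gene with no reads in luh-4. Each is the 250 bases before the annotated gene start, 5′ to 3′ on the gene's strand, from the RefSeq TAIR10.1 assembly. Capitals mark matches on either strand to the G-box core CACGTG, the W-box words TTGACC and (as another form) TTGACT, the GCC-box GCCGCC, or the TATA word TATAAA.
JAZ8, chr1:10596102-10596351, plus strand: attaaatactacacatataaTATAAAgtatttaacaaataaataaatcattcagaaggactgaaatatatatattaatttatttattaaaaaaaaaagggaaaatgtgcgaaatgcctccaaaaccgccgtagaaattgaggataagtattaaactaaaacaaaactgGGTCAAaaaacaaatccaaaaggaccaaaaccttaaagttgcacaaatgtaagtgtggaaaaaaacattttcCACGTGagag
JAZ7, chr2:14572780-14573029, plus strand: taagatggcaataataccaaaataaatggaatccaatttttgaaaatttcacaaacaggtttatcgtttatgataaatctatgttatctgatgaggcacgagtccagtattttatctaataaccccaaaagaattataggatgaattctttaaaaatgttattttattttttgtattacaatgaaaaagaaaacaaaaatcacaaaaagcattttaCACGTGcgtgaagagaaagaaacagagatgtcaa
RRTF1, chr4:16451626-16451875, plus strand: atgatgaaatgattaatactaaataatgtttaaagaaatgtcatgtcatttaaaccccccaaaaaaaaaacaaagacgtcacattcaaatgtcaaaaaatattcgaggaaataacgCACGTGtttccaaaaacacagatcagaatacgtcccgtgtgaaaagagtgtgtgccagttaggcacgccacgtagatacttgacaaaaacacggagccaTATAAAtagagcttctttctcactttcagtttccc
RBCS2B, chr5:15382072-15382321, minus strand: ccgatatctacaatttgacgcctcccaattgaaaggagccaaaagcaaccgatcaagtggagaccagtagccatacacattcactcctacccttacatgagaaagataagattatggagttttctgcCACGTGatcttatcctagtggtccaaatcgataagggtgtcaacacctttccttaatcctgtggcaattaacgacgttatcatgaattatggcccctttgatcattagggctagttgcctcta
QQS, chr3:12348797-12349046, plus strand: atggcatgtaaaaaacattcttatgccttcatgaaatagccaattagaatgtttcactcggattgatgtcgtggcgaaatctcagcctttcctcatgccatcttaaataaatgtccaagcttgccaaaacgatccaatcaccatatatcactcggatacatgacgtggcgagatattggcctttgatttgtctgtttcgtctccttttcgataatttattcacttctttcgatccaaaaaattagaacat
The G-box core is a palindrome bound by many bHLH and bZIP factors. In JAZ8 its last base lay 5 bases before the gene start, in JAZ7 29, in RBCS2B 118 and in RRTF1 129. These windows are not typical of their groups. No CACGTG was found in the windows of JAZ5, JAZ10, LOX3, LOX4, TAT3, CAB2, WRKY40 and ERF13, which were also called higher. The QQS window held none of the motifs searched. CACGTG was found in the same window of 7.12% of 16871 measured loci, of 9.09% of the 264 loci with a window that were called higher in luh-4 and of 6.34% of the 142 called lower. TATAAA was found in 46.9%, 48.1% and 50% of these sets. GCCGCC, the element of ethylene response factors, was found in 1.96%, 3.03% and 1.41%. The W-box words, which WRKY factors bind, were found (TTGACC before the other form) in 12.3% and 19.3% of measured loci, in 11.0% and 20.1% of those called higher and in 16.2% and 15.5% of those called lower. A match describes the letters in the window and not a bound site.

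A locus was called where its log2 ratio of luh-4 control to Col control, taken on RPKM plus 0.1, was at least 1 or at most -1 and the 95% counting interval on its reads excluded 0. By this rule 265 loci were called higher in luh-4, which is 1.55% of the 17070, and 146 lower, which is 0.855%. With 1 library a side there is no replicate spread and no test, so the counts describe these libraries and the intervals cover counting error only. Col control held 13.7 M reads on loci and luh-4 control 13.74 M, so read numbers of a gene can be set side by side almost as they stand. The median log2 ratio over all measured loci was 0.02, and the central 95% of ratios ran from -0.76 to 0.93. Most calls were at low levels. Of 1452 loci with a highest RPKM from 1 to 2, 8.4% were called, and of 2036 loci at 100 or more, 0.147%, which is 1 higher and 2 lower. Among the calls, 80 of the higher and 25 of the lower passed a log2 ratio of 2 or -2, and 134 and 87 rested on fewer than 50 reads in both libraries together. The plot of ratio against level shows this widening towards low RPKM.

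**Figure D1:**
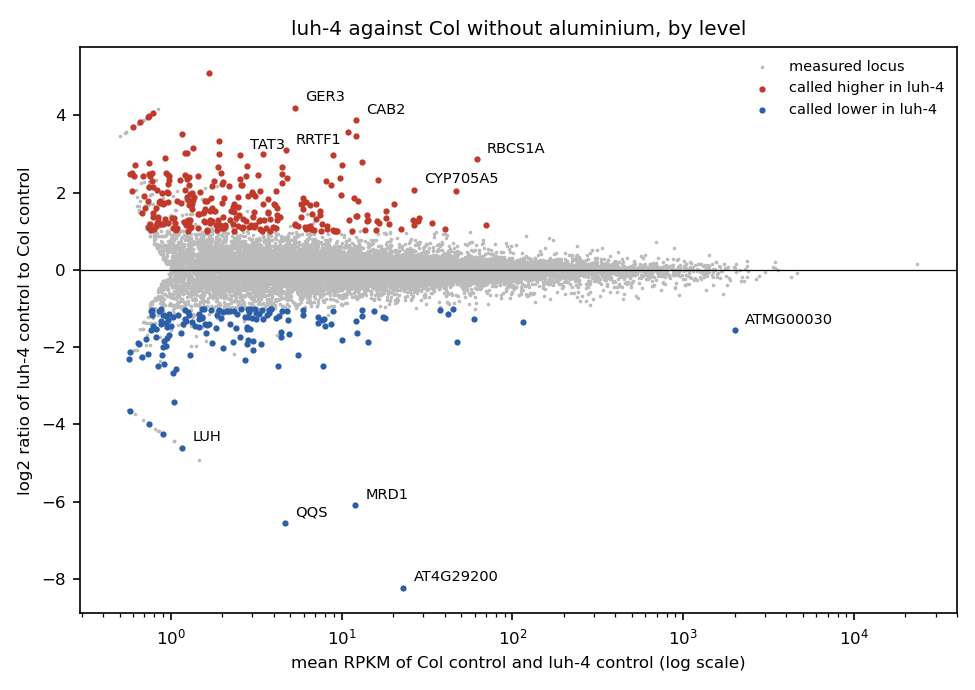
Log2 ratio of luh-4 control to Col control (y axis) against the mean RPKM of both libraries (x axis, log scale) for 17070 measured loci, 1 library a side. Red and blue points are the 265 loci called higher and the 146 called lower, and LUH, QQS, MRD1 and AT4G29200 lie at the bottom.

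LUH itself had 75 reads in Col control, 0 in luh-4 control, 63 in Col Al and 0 in luh-4 Al. The reads in Col came from 18.62% of the coding length, so the deposited tables measured LUH on a short stretch, and whether transcript from the rest of the gene was present was not tested. With 0 reads taken as up to 3, this is at least 25.1-fold lower than in Col control. LUG, the related co-repressor, had 86 reads in Col control and 78 in luh-4 control (log2 ratio -0.14). These reads also came from a short stretch, 15.74% and 13.05% of its coding length. The SEUSS-like adaptor SLK1 had 832 and 946 reads (0.18) and SLK3 359 and 407 (0.18). TPR2, of the TOPLESS-related co-repressors, had 2822 and 2949 (0.06). Of the 6 measured genes on the list of LUH and its partners LUH alone was called, and the other ratios lay between -0.14 and 0.18. TPR1, another of the 6, was covered over 13.1% and 12.59% of its length, so its ratio also rests on a short stretch. SEU had 1 read in each control library and could not be compared.

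A further 3 loci were at or near 0 in luh-4 in both treatments. AT4G29200, annotated in the deposited tables as a beta-galactosidase related protein, had 861 reads in Col control, 1 in luh-4 control, 748 in Col Al and 0 in luh-4 Al (log2 ratio -8.23 without Al). MRD1, named for its low expression in a mutant that overaccumulates methionine, had 190, 2, 203 and 3 reads in the same order (-6.09). QQS, a short orphan gene that affects starch content, had 23, 0, 22 and 0 reads, at least 7.69-fold lower without Al. All 3 had reads over 73.54% to 100% of their length in Col control, so unlike LUH they were covered along most of it. QQS and MRD1 belong to a list of 11 loci known for natural or methylation-linked silencing, of which 4 were measured, and the other measured members were not called (DML1 0.38, and PAI2 0.13 from 19 and 21 reads). MRD1 overlaps HEI10 on the other strand and an antisense gene, and strand was not stated for the counting. HEI10, a RING-type protein of meiotic crossing over, had 262 reads in Col control, 125 in luh-4 control, 272 in Col Al and 153 in luh-4 Al (-1.06), so it was lower as well, but far from 0.

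Nuclear photosynthesis genes had the most higher calls of any function listed. Of 75 genes on the lists of light-harvesting antenna, photosystem and electron transport subunits, and Calvin cycle with Rubisco, 60 were measured, 25 were called higher and none lower. Of all measured loci 1.55% were called higher. The median log2 ratio of the 60 was 0.72, against 0.02 for all loci, and 54 of their ratios were above 0. The summed level was 1478 RPKM in Col control, 2029 in luh-4 control, 1048 in Col Al and 1152 in luh-4 Al. In the Al pair 1 member was called higher and the median was 0.15.

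The antenna proteins, which bind chlorophyll around the photosystems, were called higher in 8 of 16 measured genes with a median of 1.103. CAB2, an LHCB1 gene, had 16 reads in Col control and 252 in luh-4 control (3.88), against 30 in Col Al and 18 in luh-4 Al. Its neighbour CAB3 had 21, 245, 11 and 14 reads (3.47), and CAB1, next in the row, 201, 829, 132 and 164 (2.03). The luh-4 control library alone was high for each, and the Al libraries of both genotypes resembled Col control. LHCB2.1 had 29 and 148 reads in the control pair (2.31), LHCB2.2 14 and 84 (2.49) and LHCA2, of photosystem I, 99 and 241 (1.27). The LHCB1 and LHCB2 genes are near-identical copies whose reads can be split between them, so their separate values are uncertain.

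Rubisco small subunit genes behaved alike. RBCS1A had 110 reads in Col control, 810 in luh-4 control, 143 in Col Al and 140 in luh-4 Al (2.87), which was 14.79 RPKM and 108.6 RPKM in the control pair. RBCS2B had 12, 151, 23 and 37 reads (3.57), and RBCS3B 24, 173, 33 and 34 (2.81). These are also near-identical copies. Of 17 measured Calvin cycle genes 7 were called higher, with a median of 0.78. Phosphoribulokinase (PRK), which makes the CO2 acceptor, had 11 reads in Col control and 80 in luh-4 control (2.69), but 11 and 4 in the Al pair. GAPA, the plastid glyceraldehyde-3-phosphate dehydrogenase, was called higher in both pairs with 33, 104, 20 and 42 reads (1.60).

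Subunits of the photosystems and electron carriers were called higher in 10 of 27 measured genes, with a median of 0.64. PSAL of photosystem I had 45 reads in Col control, 168 in luh-4 control and 42 in each Al library (1.88). PSBTN of photosystem II had 11, 75, 22 and 24 reads (2.72), and plastocyanin PETE1 1, 12, 5 and 4 (2.89), where the low count leaves a counting interval from 0.824 to 8.999. Of 12 measured chlorophyll synthesis genes none was called, but 11 ratios were above 0, with a median of 0.22 and a range from -0.11 to 0.55. Of 15 light signalling and photoprotection genes none was called and the median was -0.20. Transcripts of the plastid genome, which holds the other photosynthesis subunits, had 0 of 69 called higher and 1 lower, with a median of -0.10.

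Green shoot markers, which overlap these lists, were called higher in 9 of 13 measured genes of 15, with a median of 2.31. Their summed level was 74.49 RPKM in Col control, 334.3 in luh-4 control, 61.8 in Col Al and 67.44 in luh-4 Al, and 1, 0, 0 and 1 of the 15 were at 0 reads. Other shoot markers were mostly below 1 RPKM, so their lists show little on whether they moved with the green shoot markers. Of 15 stomatal and leaf epidermis markers 1 was measured, and 6 were at 0 reads in Col control and 3 in luh-4 control, with sums of 32.1 and 24.38 RPKM. Of 20 shoot meristem and leaf development markers 8 were measured and none was called (median -0.10, sums 74.12 and 70.85 RPKM). Of 17 seed storage and embryo markers 1 was measured, the albumin SESA4 with 22 and 51 reads (1.18, called higher). The part of other tissue in the photosynthesis result was not tested, and in RNA of whole roots a different number of cells of a type and a different amount of RNA per cell cannot be told apart.

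Markers of root cell types were present in both libraries, and 1 of 52 measured was called without Al. None of 19 root hair markers was called (median 0.20, sums 1537 and 1901 RPKM). Still, 17 of the 19 ratios were above 0, against 9161 of all 17070 measured loci. In the Al pair 8 of them were called higher, with a median of 0.98 and sums of 838.7 and 1553 RPKM. The root hair difference between the pairs was not tested. Of 13 root cap and root meristem markers none was called (0.15), and 9 ratios were above 0. Of 20 endodermis, xylem and stele markers 1 was called higher, the Casparian strip membrane protein CASP5 with 31 reads in Col control and 79 in luh-4 control (1.32). Only 6 of these 20 ratios were above 0, with a median of -0.10.

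**Figure D2:**
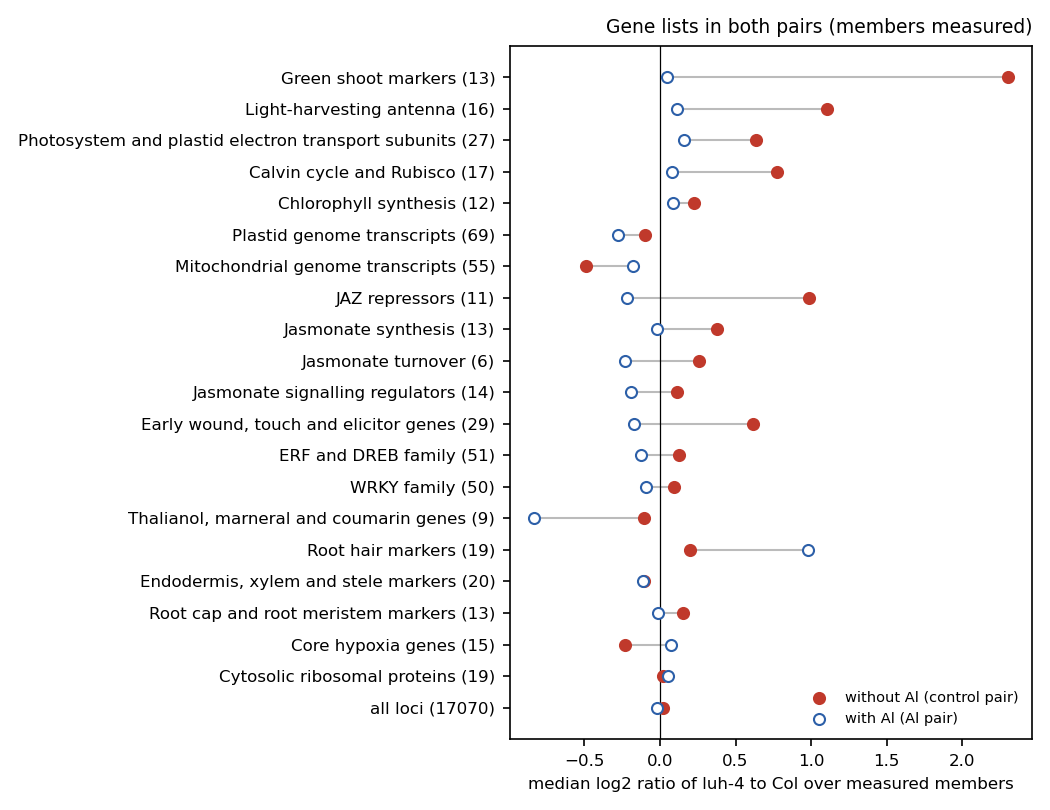
Median log2 ratio of luh-4 to Col (x axis) over the measured members of 20 gene lists and of all loci (y axis, number measured without Al in parentheses), filled for the control pair and open for the Al pair, 1 library a side. Photosynthesis, JAZ and wound lists lie to the right of 0 without Al and near or left of it with Al.

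Jasmonate genes were the next group. Over 5 lists with 70 genes, 47 were measured, 11 were called higher and none lower, against 1.55% of all measured loci called higher. The median was 0.41 and 37 ratios were above 0. In the Al pair none was called in either direction and the median was -0.16. The called LOX3, AOC1, JAZ10, TIFY7, TAT3 and ERF1 lay below 5 RPKM in both control libraries. Of all loci with a highest RPKM from 1 to 2, 8.4% were called either way, and from 2 to 5, 5.71%. Among the synthesis enzymes 4 of 13 were called higher. LOX3, a lipoxygenase that starts the pathway in plastids, had 9 reads in Col control, 65 in luh-4 control, 4 in Col Al and 6 in luh-4 Al (2.42). LOX4, its closest relative, had 35, 211, 111 and 70 (2.46). The neighbouring allene oxide cyclase genes AOC1, with 5 and 19 reads (1.73), and AOC2, with 36 and 80 (1.13), were also called. The more abundant AOC3 had 1276 and 1793 reads (0.49) and allene oxide synthase AOS 612 and 973 (0.66), both short of the threshold.

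Of 11 measured JAZ repressor genes 5 were called higher, and the median was 0.98. JAZ7 had 7 reads in Col control, 48 in luh-4 control, 18 in Col Al and 15 in luh-4 Al (2.67). JAZ8 had 8, 44, 5 and 6 reads (2.38), JAZ10 5, 27, 28 and 14 (2.22), and JAZ5 33, 102, 36 and 39 (1.59). TIFY7, also known as JAZ9, had 16, 42, 17 and 13 (1.33). The abundant members differed less: JAZ1 had 250 and 497 reads (0.98), JAZ6 302 and 574 (0.92) and JAZ12 1018 and 1088 (0.09). The members called had 5 to 33 reads in Col control, a range that also holds JAZ4 with 32 and 41 reads, which was not called. In the Al pair the ratios of the 5 ran from -0.90 to 0.28.

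Downstream, TAT3, a tyrosine aminotransferase induced by jasmonate, had 9 reads in Col control, 84 in luh-4 control, 14 in Col Al and 8 in luh-4 Al (2.98). ERF1, an ethylene and jasmonate response factor, had 17 and 42 reads in the control pair (1.26) and was the only call among 14 signalling regulators, whose median was 0.11. None of 6 turnover genes was called (0.26). CACGTG was found upstream of 2 of the 11 called jasmonate genes, JAZ7 and JAZ8, and of 5 of the 25 called photosynthesis genes, against the 7.12% of all measured loci given above.

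Genes known to respond within minutes to wounding, touch or elicitors were called higher in 7 of 29, against 1.55% of all measured loci. Their median was 0.61, with 25 ratios above 0. RRTF1, an ERF family factor also called ERF109, had 10 reads in Col control, 94 in luh-4 control, 13 in Col Al and 14 in luh-4 Al (3.09). WRKY40, a regulator of defence, had 67, 341, 141 and 88 (2.32). The zinc finger repressor STZ had 404, 912, 831 and 700 (1.17), and the calcium sensor CML37 6, 36, 127 and 82 (2.44). CML37 was higher still in both Al libraries, STZ was nearly as high there as in luh-4 control, and RRTF1 was high in luh-4 control alone. In the Al pair none of the list was called higher and 1 lower.

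Across the whole ERF and DREB family 10 of 51 were called higher and 1 lower, against 1.55% and 0.855% of all measured loci. The median was 0.13, so most members had similar values in both libraries. ERF13 had 18 reads in Col control, 148 in luh-4 control, 62 in Col Al and 40 in luh-4 Al (2.97), ERF2 162, 367, 309 and 291 (1.17), and the cold response factor CBF2 5, 26, 20 and 11 (2.19). In the WRKY family 4 of 50 were called, namely WRKY18, WRKY40, WRKY46 and WRKY70, with a median of 0.10. WRKY18, WRKY40 and WRKY46 are also on the list of early wound, touch and elicitor genes. RRTF1 is on that list and the ERF list, and ERF1 is on a jasmonate list and the ERF list. These genes are therefore counted under more than 1 group. WRKY70, which acts in salicylate signalling, had 19, 65, 122 and 142 reads (1.71). GRX480, a glutaredoxin of the salicylate response, had 14 and 53 reads in the control pair (1.87). ALD1, which makes an immune signal of the pipecolate pathway, had 20, 4, 18 and 17 (-1.90). These were the 2 higher calls and the lower call among 22 measured salicylate and immune regulators, whose median was 0.15. Other abundant higher calls were BCS1, a mitochondrial outer membrane AAA protein, with 376 and 967 reads (1.35), DIC2, a mitochondrial dicarboxylate carrier, with 338 and 708 (1.06), and AT4G29780, uncharacterized, with 339 and 829 (1.28). In the Al pair these 3 had ratios from -0.39 to -0.28.

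**Figure D3:**
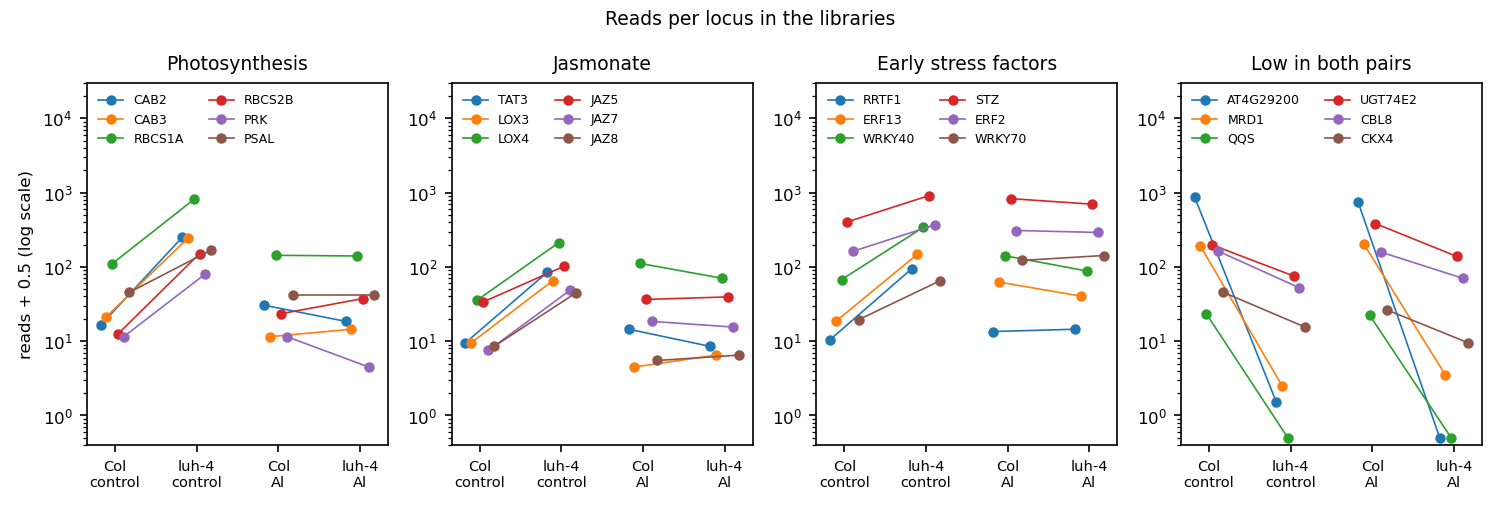
Reads plus 0.5 (y axis, log scale) in the 4 libraries (x axis) for 6 genes each of photosynthesis, jasmonate, early stress factors and loci called lower in both pairs. Points are single libraries and lines join Col to luh-4 within a treatment; the first 3 panels slope up without Al and are near level or mixed with Al, and the last slopes down in both.

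Triterpene genes of the thalianol cluster on chromosome 5 formed the longest run of neighbouring calls. CYP705A5 had 211 reads in Col control, 901 in luh-4 control, 175 in Col Al and 77 in luh-4 Al (2.08), so it was called higher without Al and lower with it (-1.12). Thalianol synthase THAS1 had 26, 82, 41 and 21 reads (1.54), and the hydroxylase CYP708A2 7, 34, 5 and 6 (1.98). In Col control the reads of THAS1 and CYP708A2 covered only 16.43% and 17.28% of their lengths. Their neighbour AT5G47980 had a ratio of 1.29. In the marneral cluster, marneral synthase MRN1 had 7, 42, 6 and 4 reads (2.15), while CYP71A16 beside it had 249 and 232 (-0.10). Over the list of thalianol, marneral and coumarin genes 4 of 9 were called higher, against 1.55% of all measured loci. Yet the list median was -0.10. In all, 18 pairs of neighbouring measured loci were called the same way, 15 higher and 3 lower. They included the CAB1 to CAB3 row, the RBCS row, AOC1 with AOC2, and MRD1 with HEI10. FAMT, a farnesoic acid methyltransferase, and the adjacent AT3G44870 had 3 and 24 reads and 3 and 39 reads in the control pair (2.52 and 3.15).

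GER3, a germin-like protein, had the highest ratio among loci of at least 5 RPKM, with 4 reads in Col control, 89 in luh-4 control, 6 in Col Al and 4 in luh-4 Al (4.202). AT3G05730 had a higher ratio, 0 and 12 reads in the control pair, at least 3.99-fold higher. UBQ10, a polyubiquitin often used as a reference gene, had 125, 252, 171 and 266 reads (1.04) and was the only call among 12 reference genes, whose median was 0.01. Its repeated units share sequence with other ubiquitin genes.

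The lower calls were fewer and fell on fewer lists. Of 60 lists 11 had at least 3 members called higher, and 1 had at least 3 called lower. The latter was the cytochrome P450 genes, with 3 higher and 4 lower of 134 and a median of -0.04. Over all measured loci 1.55% were called higher and 0.855% lower. The P450 list is the largest, and a large list reaches 3 calls more easily. Its higher calls include CYP705A5 and CYP708A2 of the thalianol cluster. Since lists share genes, the 11 are not separate results. UGT74E2, a glucosyltransferase of indole-3-butyric acid, had 198 reads in Col control, 75 in luh-4 control, 384 in Col Al and 138 in luh-4 Al (-1.38). CBL8, a calcium sensor, had 164, 52, 158 and 70 (-1.64). CKX4, a cytokinin oxidase, had 45, 15, 26 and 9 (-1.46), with reads over 30.03% of its length in Col control. All 3 were called lower in both pairs, as the plot of members by library shows. MOT1, a molybdate transporter, had 206, 83, 191 and 100 (-1.30), and the glutamate receptor GLR2.2 232, 109, 212 and 105 (-1.07). The peptide gene CLE2 had 70 and 19 reads in the control pair (-1.87), and the sugar exporter SWEET12 14 and 2 (-2.26).

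Among genes known from low oxygen, AT3G10040, a DNA-binding factor known as HRA1, had 1028 reads in Col control, 464 in luh-4 control, 687 in Col Al and 481 in luh-4 Al (-1.15). It was the only call of 15 measured genes on a list of 16 core hypoxia genes, added after values were seen. The list may leave out other genes of the low oxygen response, so this count covers its members only. Their median was -0.23, and 5 had ratios above 0. LBD41, on the list, had 1013, 550, 785 and 611 reads (-0.88 without Al), short of the threshold. Alcohol dehydrogenase ADH1 had 8186, 13551, 2771 and 4715 reads (0.72 without Al and 0.81 with Al), and the sucrose synthase SUS4 4181, 5608, 1512 and 2447 (0.42 and 0.73), so these were above Col in both treatments but not called. Of abundant lower calls outside that list, uncharacterized AT3G50640 had 508, 140, 310 and 269 reads (-1.86). AT1G33055 had 457, 180, 247 and 212 (-1.35), and AT4G10270 314, 130, 160 and 174 (-1.27). For AT1G33055 and AT4G10270 the Col control library was the high one and the other 3 lay closer together. For AT3G50640 Col control was the highest and luh-4 control the lowest, with both Al libraries between them. Whether these 3 genes respond to low oxygen was not tested.

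The most abundant lower call was ATMG00030, an open reading frame of the mitochondrial genome, with 13252 reads in Col control, 4537 in luh-4 control, 9464 in Col Al and 9439 in luh-4 Al (-1.55). Its level was 2986 RPKM in Col control and 1019 RPKM in luh-4 control. Of 55 measured mitochondrial transcripts 2 were called lower and none higher, 11 ratios were above 0 and the median was -0.49. These transcripts were summed at 3407 RPKM in Col control, 1339 in luh-4 control, 2500 in Col Al and 2516 in luh-4 Al. Most of this sum was ATMG00030, and without it the sums were 420.8, 319.8, 385.9 and 349.7 RPKM. The libraries were enriched with oligo(dT), and organelle transcripts are mostly without long poly(A) tails, so these levels depend on how well the enrichment worked in each library, which was not tested.

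By the deposited annotation, 399 classes held 20 to 500 measured loci, of which 215 had none called higher and 270 none lower. Over all 17070 measured loci, 1.55% were called higher and 0.855% lower. The largest shares called higher were in tetrapyrrole binding with 8 of 24 (33.3%), chloroplast stroma with 12 of 69 (17.4%), generation of precursor metabolites and energy with 10 of 67 (14.9%), response to chemical stimulus with 4 of 27 (14.8%) and photosystem II with 4 of 28 (14.3%). MADS-box factors with 3 of 22, cellular metabolic process with 7 of 56, carboxy-lyase activity with 5 of 45, chloroplast thylakoid with 33 of 310 and response to red or far red light with 13 of 123 followed. Among lower calls the shares were smaller, led by cellular response to inorganic substance and CONSTANS-type zinc fingers with 2 of 21 each (9.52%), response to ethylene stimulus with 3 of 33 (9.09%) and mitochondrial inner membrane with 2 of 23 (8.7%). The next classes were zeta-carotene desaturase and second-messenger signalling with 2 of 25 each, paired-donor oxidoreductases with 2 of 30, integral to membrane and response to iron ion with 2 of 31 each, and NADH dehydrogenase and inorganic anion transmembrane transport with 2 of 34 each. The lower classes named held 2 or 3 calls each and are the top of 399, so they do not show a function lower in luh-4. Classes of this size change place with 1 or 2 calls, and classes share genes.

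Large parts of the root transcriptome had similar levels in both libraries. Of the 60 lists 27 had no locus called, and 46 had a median within 0.25 of 0. Core histones (17 genes, median 0.09), cytosolic ribosomal proteins (19, 0.02), glutathione transferases (40, -0.05), cellulose synthases (21, 0.07), xyloglucan endotransglucosylases (25, 0.04), auxin transport (13, -0.10) and LUH-linked seed mucilage genes (5, -0.09) had none called. Among 18 aluminium resistance genes the only call was WRKY46, with 14 and 46 reads (1.63), and the median was 0.015. Calls were spread over the nuclear chromosomes, with 1.31% to 1.7% higher and 0.703% to 1.17% lower of the loci on each. Of the 400 measured loci nearest to LUH on chromosome 2, 7 were called higher and 6 lower, 3.25% against 2.41% over all loci.

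Most calls were not shared with the Al pair in either direction, but the shared portion lay above the background rates of that pair given below. Of 16646 loci measured in both pairs, 199 were called higher without Al and 189 with Al, and 13 were shared, which is 6.53% of the former and 6.88% of the latter. Of the 199, 50.8% had a ratio above 0 in the Al pair, where 46.0% of all loci did, and their median went from 1.418 to 0.015. Lower calls numbered 126 without Al and 138 with Al, and 20 were shared, which is 15.9% and 14.5%. Of the 126, 76.2% were below 0 in the Al pair and their median went from -1.30 to -0.36. Background rates in the Al pair were 1.22% higher and 0.946% lower of 17011 measured loci. The difference between the pairs was not tested. A genotype term fitted with edgeR over all 4 libraries, with treatment as the other term, called 61 of 17289 loci higher (0.353%) and 104 lower (0.602%) at a Benjamini-Hochberg adjusted p under 0.05; it has 1 residual degree of freedom, and its spread is the departure from additive effects and not variation between plants. It called 11 of the 265 loci higher without Al and 15 of the 146 lower.

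**Figure D4:**
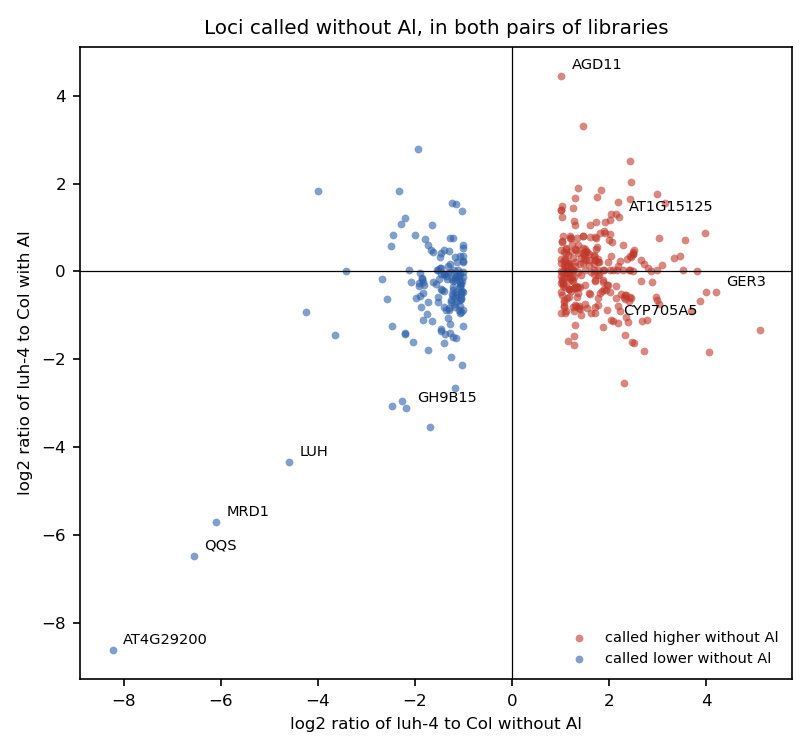
Log2 ratio of luh-4 to Col without Al (x axis) and with Al (y axis) for the 265 loci called higher (red) and the 146 called lower (blue) without Al, 1 library each. Red points spread evenly above and below 0 on the y axis, and LUH, MRD1, QQS and AT4G29200 lie far below 0 on both axes.

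Called higher in both pairs were 13 loci. AT1G15125, annotated as a methyltransferase, had 44 reads in Col control, 208 in luh-4 control, 135 in Col Al and 310 in luh-4 Al (2.2 without Al). ESM1, which steers glucosinolate breakdown, had 18, 78, 10 and 24 (2.02), and IAA29, an auxin response repressor, 4, 16, 5 and 18 (1.75). GRP20, a glycine-rich protein, had 104, 253, 108 and 233 (1.27), and AT1G78460, a SOUL heme-binding protein, 74, 180, 44 and 118 (1.27). AGD11, annotated as a calmodulin-like protein, had 39, 80, 0 and 13 (1.02). AGD11, AT3G05155 and DMP1, all among the 13, lay close to the threshold without Al. These lost that call with TMM scaling and with ratios centred on the median locus. The 13 hold no jasmonate or early wound gene, and GAPA was their only photosynthesis gene. Among the 20 lower in both, beside those above, were the endoglucanase GH9B15 with 25, 4, 24 and 1 reads (-2.18) and AT5G33355, a defensin-like protein, with 82, 35, 251 and 87 (-1.22). AT3G12900 had 370, 155, 16 and 3 (-1.25), so it was low in both Al libraries and lower in luh-4 within each treatment.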

How the data were processed

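Poly(A) RNA of roots was sequenced in 4 libraries, 1 per genotype and treatment, per the labels' protocols, with Illumina sequencing. TAIR 10 is the build in the submitters' processing notes, and the sources used here do not name the aligner, the counter or the strand setting. Per the file headers, the authors deposited, for each transcript with reads, a read count, a length, the percent of the length covered (coverage) and an RPKM. Counts summed to the header totals of 13697345 (Col control), 13735435 (luh-4 control), 13819365 (Col Al) and 13450338 (luh-4 Al), and the deposited RPKM equalled reads scaled by total and length. Multiples of 3 made up 99.99% of the lengths, which are therefore coding lengths. A share of 96.95% equalled a coding length of the same locus in the RefSeq TAIR10.1 annotation or was 3 bases shorter than one. Promoter sequences, overlaps and symbols came from that annotation (21258 of 21531 loci matched).

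Counts and RPKM were summed over transcripts per locus, and unlisted loci were taken as 0 reads. The pseudocount of 0.1 understates ratios of low loci. Intervals were exact conditional binomial (Clopper-Pearson, 95%) on reads. They and the floors cover counting error only, since PCR copies are not separate molecules. Where a locus has 0 reads, up to 3 are possible, which at 1 kb is 0.217 to 0.223 RPKM. Replicates were absent, so no p-value is given for the comparison.

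The members, the 60 lists and the rule for named genes were chosen with earlier results of these data known. Named were LUH and its list; with a symbol and at least 5 RPKM, the 20 called loci furthest from 0 each way; the 10 most abundant each way; the 15 furthest each way called in both pairs; and up to 6 called members per list. AOC3, AOS, JAZ1, JAZ6, JAZ12, LHCA2, PAI2, DML1, ADH1, SUS4, LBD41, CYP71A16, FAMT, AT3G44870, AT5G47980, AT3G05730 and the genes of the closing section outside that rule were chosen after their values were seen. For lists, 54 IDs were supplied by hand, 76 symbols matched no single locus and were left out, and 31 matches to another gene of the same symbol or to organelle ribosomal proteins were removed. Reads of near-identical copies and, without strand, of overlapping genes cannot be told apart.

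The call rule was tested on simulated reads. Alternatives were another pseudocount, RPKM minimum, scaling, threshold or transcript level, and edgeR 4.0.16 in R 4.3.3 (quasi-likelihood test, genotype plus treatment, TMM, Benjamini-Hochberg). Calculations ran in Python 3.11.15 (pandas 2.3.3, numpy 2.4.6, scipy 1.17.1), figures in matplotlib 3.10.9.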

Additional observations from a re-analysis of the deposited data

Results flagged for a closer look

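In 11 loci the control pair and the Al pair were called in opposite directions, luh-4 against Col, with 1 library per group; the difference was not tested. Higher without Al and lower with Al were CYP705A5 of the thalianol cluster (log2 ratio 2.08 without Al, -1.12 with Al), AT3G05730 (5.11, from 0 and 12 reads, and -1.34), AT1G64065 (2.35 and -1.04), AT5G52050 (1.3 and -1.22), AT4G28930 (1.28 and -1.68), PP2-B13, a phloem lectin-like protein (1.27 and -1.47), and AT3G22450 (1.16 and -1.58). Lower without Al and higher with Al were AT3G04184 (-1.93 and 2.79), AT5G60335 (-1.64 and 1.05), AT1G78922 (-1.23 and 1.56) and AT1G52550 (-1.03 and 1.38).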

How the results depend on the processing

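No paired analysis was possible because each group holds 1 library and the labels give no replicate numbers. Against 265 higher and 146 lower calls, 140 and 56 loci were called with a pseudocount of 1 RPKM, 94 and 45 with at least 5 RPKM in either library, and 80 and 25 at a log2 ratio of 2. Without the counting interval 220 loci were called lower, and 374 higher. With at least 50 reads in both libraries together, an alternative chosen after seeing the data, 131 and 59 were called. The edgeR genotype term over 4 libraries called 61 loci higher and 104 lower, against 862 and 1085 at an unadjusted p under 0.05. It tested 210 of the higher and 122 of the lower calls. Counts stayed within 1.5 times with a pseudocount of 0.01 (277 and 157), no RPKM minimum (339 and 185), centring (255 and 154), TMM (254 and 155, a shift of 0.023), single transcripts (270 and 159), at least 50% coverage (229 and 129), without photosynthesis lists and organelle genomes (241 and 143) and with loci overlapping no other gene, chosen after seeing the data (194 and 110). No named gene changed sign under the pseudocount, minimum, scaling, threshold and interval settings, but 37 lost their call with a pseudocount of 1 RPKM, 71 at a log2 ratio of 2 and 3 each under TMM and centring. With at least 5 RPKM in either library, only 73 of the 124 named genes could be compared, and the others fell below that minimum. Of 60 list medians, 3 moved with at least 5 RPKM, 4 with no minimum and 1 with a pseudocount of 1, and none with TMM or centring. Depth limits low loci, where 3 reads of a 1 kb locus are 0.217 to 0.223 RPKM.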

Other observations

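The edgeR genotype term over 4 libraries picked out abundant genes with modest ratios of the same sign in both pairs, which the threshold of 1 leaves out; these were chosen after their values were seen. NRT2:1, a high-affinity nitrate transporter, had 25198 reads in Col control, 16029 in luh-4 control, 15224 in Col Al and 8696 in luh-4 Al (log2 ratio -0.66 without Al and -0.77 with Al). FRO2, the ferric chelate reductase of iron uptake, had 13996, 10368, 4851 and 3621 reads (-0.44 and -0.38). NAC003, a NAC transcription factor, had 872, 484, 851 and 495 (-0.85 and -0.74). LRX1, a root hair cell wall protein, had 1974, 2627, 1312 and 2530 (0.41 and 0.98). Plastocyanin DRT112, a photosynthetic electron carrier, had 191, 367, 118 and 166 (0.94 and 0.53). The adjusted p-values of edgeR's quasi-likelihood test were 0.000588 for NRT2:1, 0.0173 for FRO2, 0.00223 for NAC003, 0.0165 for LRX1 and 0.0396 for DRT112, with the limit on its spread given above.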
